A study of Mus musculus with 6 samples.

Results

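Fibroblast growth factors (FGFs) and their receptors were followed from mouse embryonic stem cells (ESCs) to epiblast-like cells (EpiLCs). The 10 genes described were chosen by name among 24736 genes measured and comprise 6 secreted ligands (Fgf4, Fgf5, Fgf8, Fgf10, Fgf15 and Fgf17) and the 4 tyrosine kinase receptors (Fgfr1, Fgfr2, Fgfr3 and Fgfr4). All 10 were present in the table, and all 10 passed the filter on low counts that left 14468 genes to be tested. Wild-type ESCs of the XY HM1 TetON line were kept on inactivated mouse embryonic fibroblast feeders with 1000 U/ml LIF and 10% serum. They were collected at 0 h, before the differentiation protocol was begun, as 3 biological replicates. EpiLCs were made from the same line, after feeders had been removed by their adhesion to plastic, by 48 h of culture without serum, LIF or added feeders, in N2B27 medium with 10 ng/ml bFGF (recombinant FGF2 protein) and 5 µM LGK974, an inhibitor of WNT secretion, again as 3 biological replicates. The sample labels and the results text of the study give this time, and its culture methods give a longer one for EpiLCs. The comparison thus changed added FGF, serum, LIF, feeders, WNT secretion and time together, in a single parental cell line, and these cannot be told apart.

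FGF ligands bind receptor tyrosine kinases together with heparan sulphate, and the receptors then activate the RAS-ERK cascade through the adaptor FRS2. In mouse ESCs, FGF4 secreted by the cells themselves is the main stimulus of ERK and prepares them to leave naive pluripotency, whereas FGF5 is a classical mark of the post-implantation epiblast. FGF8 and FGF17 belong to the same ligand subfamily, and FGF8 is known from the primitive streak, where cells need it to move away during gastrulation.

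Cell identity was checked with marker genes. Of 10 naive pluripotency markers, 10 were lower in EpiLCs, and of 9 markers of the early post-implantation epiblast, 9 were higher. Over all genes tested, 22.6% were higher and 22.8% lower in EpiLCs (edgeR, adjusted p of at most 0.05). These shares stand beside the later marker counts as well. The summed abundance of the naive markers, led by Zfp42 and Klf2, was between 2077 and 2834 TPM, a level scaled for transcript length and library size, in ESCs and between 70.8 and 112 TPM in EpiLCs. The summed abundance of the post-implantation markers, led by Dnmt3b and Utf1, was between 572 and 756 TPM in ESCs and between 2812 and 2930 TPM in EpiLCs. The libraries held between 16967741 and 35096210 expected counts, so that 3 counts correspond to between 0.0855 and 0.177 CPM (counts scaled to a common library size).

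Libraries of the same group were not equal in markers of other cells (values for the 3 libraries of a group are listed in the order of their replicate numbers). The sum of 14 fibroblast markers in ESCs was 421, 2153 and 152 TPM and lay between 85.9 and 102 TPM in EpiLCs, with all 14 markers highest in ESC replicate 2 among the ESCs. Of these markers 12 were tested, of which 6 were lower and none higher in EpiLCs, their most abundant genes were Lox and Col1a1, and Fap, at 0 in all 3 EpiLC libraries, had at most 1 count in any ESC library. The sum of 16 primitive streak markers, led by T and Eomes, was 620, 266 and 212 TPM in the ESC libraries, against 31.1, 27.7 and 112 TPM after differentiation. Of these 16 markers, 9 were lower and none higher in EpiLCs, 14 were highest in ESC replicate 1 among the ESCs and 14 in EpiLC replicate 3 among the EpiLCs. In bulk RNA, fewer cells of a type and less RNA per cell cannot be told apart.

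The ligand genes lie on 5 chromosomes of mm10. Fgf4 (chromosome 7, 144861386 to 144865245) and Fgf15 (chromosome 7, 144896532 to 144900953) are neighbours on the plus strand, with 31286 bases between them, and Fgf3 lies 18037 bases before Fgf4. Fgf5 is on chromosome 5 (98254184 to 98277033, plus strand), Fgf8 on chromosome 19 (45736491 to 45742941, minus strand), Fgf10 on chromosome 13 (118714699 to 118792573, plus strand) and Fgf17 on chromosome 14 (70636203 to 70642268, minus strand). The receptor genes are Fgfr1 on chromosome 8 (25518759 to 25575718, plus strand), Fgfr2 on chromosome 7 (130162451 to 130266808, minus strand), Fgfr3 on chromosome 5 (33721724 to 33737068, plus strand) and Fgfr4 on chromosome 13 (55152818 to 55168759, plus strand).

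Promoter sequences of 6 of the 10 genes were taken from RefSeq on GRCm38.p6. The 250 bases before the annotated start are shown for the Fgf5, Fgf10 and Fgf4 ligand genes and for Fgfr2, as examples of a gene that rose, a gene that fell, a gene that did not pass the test and a receptor gene that rose. They are printed 5′ to 3′ on the strand of the gene, at chr5:98253934-98254183 (plus strand), chr13:118714449-118714698 (plus strand), chr7:144861136-144861385 (plus strand) and chr7:130266809-130267058 (minus strand). Capitals mark matches, on either strand, to the TATA box TATAAA, the CCAAT box, the GC box GGGCGG, the octamer motif ATGCAAAT or the SOX motif ACAAAG.
Fgf5: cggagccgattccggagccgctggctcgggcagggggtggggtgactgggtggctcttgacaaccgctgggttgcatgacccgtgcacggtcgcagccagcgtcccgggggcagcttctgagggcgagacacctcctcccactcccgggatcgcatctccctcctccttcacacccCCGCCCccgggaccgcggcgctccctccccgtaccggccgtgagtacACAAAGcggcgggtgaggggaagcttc
Fgf10: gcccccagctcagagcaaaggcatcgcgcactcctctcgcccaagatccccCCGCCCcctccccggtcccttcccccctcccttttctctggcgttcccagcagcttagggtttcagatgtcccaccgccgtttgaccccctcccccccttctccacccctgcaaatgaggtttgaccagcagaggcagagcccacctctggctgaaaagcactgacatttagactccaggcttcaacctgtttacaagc
Fgf4: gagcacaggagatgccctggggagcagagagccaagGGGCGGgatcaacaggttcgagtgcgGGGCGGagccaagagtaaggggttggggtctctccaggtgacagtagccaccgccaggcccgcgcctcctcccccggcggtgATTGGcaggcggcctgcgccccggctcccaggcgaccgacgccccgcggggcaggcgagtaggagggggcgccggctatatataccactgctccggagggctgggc
Fgfr2: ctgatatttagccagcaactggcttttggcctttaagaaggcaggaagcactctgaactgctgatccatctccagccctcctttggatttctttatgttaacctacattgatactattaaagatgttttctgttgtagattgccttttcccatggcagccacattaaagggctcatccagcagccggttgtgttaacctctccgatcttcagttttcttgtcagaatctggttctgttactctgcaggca
Over the window from 250 bases before to 50 bases after the start, GGGCGG, the GC box, was found in the windows of Fgf5, Fgf10, Fgf4, Fgfr3 and Fgfr4, not in that of Fgfr2, and in 35.6% of 32817 such windows of all genes. The SOX motif ACAAAG was found in the Fgf5 window, 27 bases before the start, and in 18.7% of all windows. The octamer ATGCAAAT, a POU factor motif, was in none of the windows of these genes and in 1.74% of all windows. CCAAT was in the Fgf4 window, in 1 of 2 Fgfr3 windows and in 37.4% of all windows, and TATAAA was in the Fgf5 window, after the start and so outside the printed stretch, and in 13.6% of all windows. The Fgf5 and Fgf4 windows held 29 and 28 CpG dinucleotides, the Fgfr3 windows 26 and 30, the Fgfr4 window 20, the Fgf10 window 10 and the Fgfr2 window 4, against a median of 7 over all windows. A match of letters is a description of the sequence and does not show that a factor binds there.

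For Fgf5, the RT-qPCR primers used in the study show which transcript they could measure. They are shown because the counts described here cover both annotated transcripts of the gene.
Fgf5_F: tgtgtctcaggggattgtagg
Fgf5_R: agctgttttcttggaatctctcc
The forward primer matched exon 2 (chromosome 5, 98261962 to 98261982) and the reverse primer, on the other strand, exon 3 (98275240 to 98275262) of the Fgf5 transcript with 3 exons in GENCODE M21, both within the coding sequence, with a product of 137 bases. The transcript with 2 exons lacks the forward site. Each primer matched transcripts of 1 gene.

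Of the 10 genes, 3 rose from ESC to EpiLC (Fgf5, Fgfr1 and Fgfr2), 3 fell (Fgf8, Fgf10 and Fgf17) and 4 did not pass an adjusted p of 0.05 (Fgf4, Fgf15, Fgfr3 and Fgfr4). These counts stood beside 45.4% of all genes tested that passed the same threshold, 22.6% as higher and 22.8% as lower in EpiLCs, by edgeR's quasi-likelihood test with Benjamini-Hochberg adjustment. Without EpiLC replicate 1, 4244 of 14768 genes passed, against 6571 of 14468 with all libraries, and the counts among the 10 genes were again 3 and 3. Of the 6 genes that passed, 5 changed by more than 1 on the log2 scale, which 20.2% of all genes tested did. Without ESC replicate 2 and EpiLC replicate 3, 3 of the 10 genes were higher and 3 lower. The median log2 fold change of the 10 genes was -0.27, against -0.0017 over all genes tested. The TPM of EpiLC and ESC libraries did not overlap for 7 of the 10 genes, and for 59.5% of all genes tested.

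**Figure D1:**
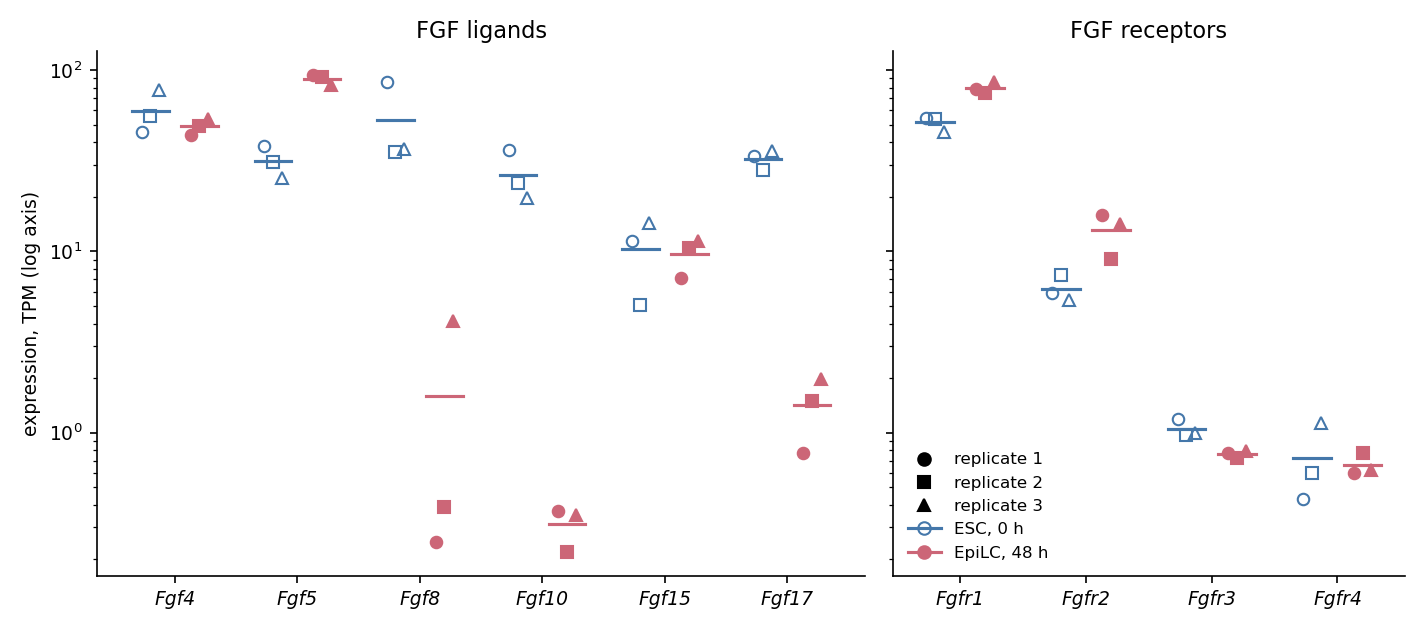
Expression of the 6 FGF ligands and 4 FGF receptors in each library, in TPM on a log axis. Open blue symbols are the 3 ESC libraries, filled red symbols the 3 EpiLC libraries, symbol shape gives the replicate and bars are group means. Fgf8, Fgf10 and Fgf17 lie lower in every EpiLC library than in any ESC library, and Fgf5, Fgfr1 and Fgfr2 lie higher.

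Fgf5 became the most abundant of the 6 ligands. It measured 38.0, 31.3 and 25.5 TPM in ESCs, against 94.5, 91.7 and 82.7 TPM in EpiLCs. Each EpiLC library was thus above each ESC library, and Fgf5 transcripts were already present in the ESC libraries. The ESC replicates had the same order for Fgf5 as for the streak marker sum and for T. The part of streak-like cells in the Fgf5 values was not tested. The mean rose from 31.6 ± 6.29 TPM (SD, n = 3) to 89.6 ± 6.14 TPM (SD, n = 3), or 2.84 times, which is 1.46 ± 0.14 (SE) on the log2 scale (edgeR, adjusted p = 4.13e-04).

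Fgf4, the ligand through which ESCs stimulate themselves, measured 45.9, 56.0 and 77.3 TPM in ESCs, against 43.7, 49.3 and 53.9 TPM in EpiLCs. The groups overlapped, with ESC replicate 3 highest. Its log2 fold change of -0.34 did not pass the test (edgeR, adjusted p = 0.189), and its 95% interval ran from -0.80 to 0.12. Leaving out 1 library moved it from -0.52 without ESC replicate 1 (edgeR, adjusted p = 0.0572, the lowest of all alternatives, the highest being 0.575) to -0.09 without ESC replicate 3. Fgf15, the mouse counterpart of human FGF19 and a regulator of bile acid synthesis in the adult, was lower than Fgf4 in every library. It measured 11.5, 5.06 and 14.3 TPM in ESCs, against 7.17, 10.5 and 11.4 TPM in EpiLCs, with overlapping groups and the lowest value in ESC replicate 2. Its log2 fold change was -0.15 (95% interval -1.05 to 0.74, edgeR, adjusted p = 0.764). Fgf3, the third gene of this stretch of chromosome 7, was lower still, with 5.05, 0.55 and 2.20 TPM in ESCs, against 0.42, 1.38 and 1.15 TPM in EpiLCs, and its groups overlapped as well (log2 fold change -1.47, edgeR, adjusted p = 0.145).

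Fgf8 and Fgf17, ligands of the same subfamily, both fell. Fgf8 measured 86.0, 35.6 and 36.9 TPM in ESCs, against 0.250, 0.390 and 4.11 TPM in EpiLCs. The 4, 7 and 63 counts behind the EpiLC values show that EpiLC replicate 3 stood far above the other EpiLC libraries, although it was still below every ESC library. The mean fell from 52.8 ± 28.8 to 1.58 ± 2.19 TPM (SD, n = 3 each), a log2 fold change of -5.07 (95% interval -7.31 to -2.85, edgeR, adjusted p = 0.00526). Without EpiLC replicate 3 the log2 fold change was -7.31 (edgeR, adjusted p = 0.00179), and over all alternatives the adjusted p ranged from 1.15e-04 to 0.0223.

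The library with the most Fgf8 in each group also had the most primitive streak transcripts. ESC replicate 1 was the highest ESC library and EpiLC replicate 3 the highest EpiLC library for Fgf8, for the streak marker sum and for T, which measured 180, 73.0 and 40.0 TPM in ESCs, against 0.870, 0.690 and 30.7 TPM in EpiLCs. The other libraries did not share an order, as ESC replicate 2 had more of the streak sum but less Fgf8 than ESC replicate 3. The part of streak-like cells in the Fgf8 values was not tested. Without ESC replicate 1, the ESC library with the highest streak sum, Fgf8 had a log2 fold change of -4.53 (edgeR, adjusted p = 0.0194). Without ESC replicate 2, highest in fibroblast markers, and EpiLC replicate 3, highest in streak markers among the EpiLCs, it had a log2 fold change of -7.54 (edgeR, adjusted p = 0.00203).

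Fgf17, known from the midbrain-hindbrain boundary, was more even between ESC replicates, at 33.6, 28.0 and 35.7 TPM, and measured 0.77, 1.5 and 1.98 TPM after differentiation. All EpiLC libraries were far below all ESC libraries. Its mean fell from 32.4 ± 3.98 to 1.42 ± 0.609 TPM (SD, n = 3 each), a log2 fold change of -4.57 (standard error 0.32, edgeR, adjusted p = 1.46e-04). Fgf17 was highest in EpiLC replicate 3 among the EpiLCs, as Fgf8 and the streak sum were, but among the ESCs it was highest in replicate 3 and not in replicate 1.

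Fgf10, a ligand of the IIIb form of FGFR2 that is needed for limb and lung buds, showed the largest log2 fold change of the 10 genes in the edgeR fit of all 6 libraries, but Fgf8 exceeded it in the fits without EpiLC replicate 3 and with limma on log2(TPM + 1). It measured 36.1, 23.9 and 19.7 TPM in ESCs, against 0.370, 0.220 and 0.350 TPM in EpiLCs, and the EpiLC values rest on 28, 16 and 23 counts. No EpiLC library came near the ESC range. The mean was 84.7 times higher in ESCs, with a log2 fold change of -6.45 (standard error 0.32, edgeR, adjusted p = 5.37e-05). The ESC replicates had the same order for Fgf10 as for the streak marker sum, for T and for the primitive endoderm marker sum of 87.5, 71.3 and 61.4 TPM, whereas the fibroblast markers were highest in ESC replicate 2. Fgf5 and Fgfr1, which rose in EpiLCs, had the same order of ESC replicates as Fgf10. The part of streak-like cells, primitive endoderm or fibroblasts in the Fgf10 values was not tested. Without ESC replicate 2 and EpiLC replicate 3 its log2 fold change was -6.60 (edgeR, adjusted p = 1.34e-03).

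**Figure D2:**
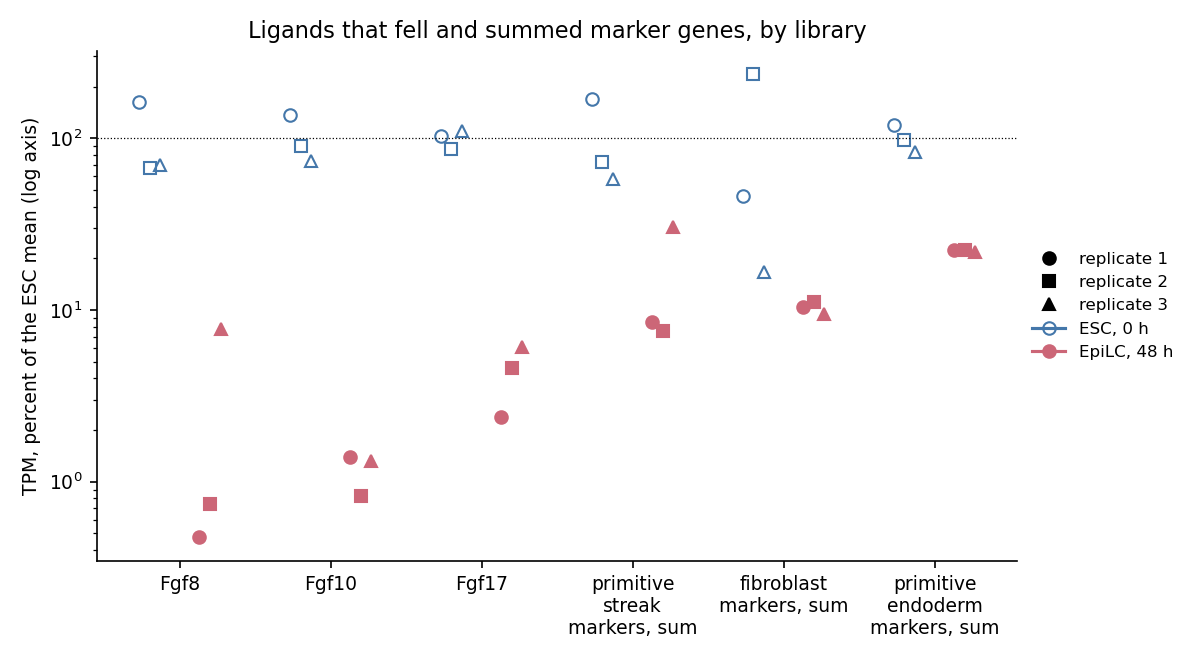
TPM of Fgf8, Fgf10 and Fgf17 and summed TPM of primitive streak, fibroblast and primitive endoderm markers in each library, as percent of the ESC mean on a log axis. Open blue symbols are ESC and filled red symbols EpiLC libraries, and symbol shape gives the replicate. EpiLC replicate 3 is high for Fgf8 (7.78% of the ESC mean) and for the streak sum (30.6%), but is close to EpiLC replicate 1 for Fgf10.

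The make-up of the ligand transcripts differed between ESCs and EpiLCs. The 6 ligands and the 12 other secreted FGFs together summed to 269, 217 and 219 TPM before and to 151, 160 and 159 TPM after differentiation. The sum was thus lower in every EpiLC library than in any ESC library. In ESCs this sum was spread mainly over Fgf4 (26.1% ± 9.16), Fgf8 (21.7% ± 8.85), Fgf17 (13.9% ± 2.10), Fgf5 (13.4% ± 1.53) and Fgf10 (11.1% ± 2.19) (SD, n = 3). Fgf7 held 2.74%, 11.6% and 1.21% in the ESC libraries, the most in replicate 2, which was highest in fibroblast markers. The part of other cells in these sums and shares was not tested. In EpiLCs, Fgf5 held 57.3% ± 5.17 and Fgf4 held 31.2% ± 2.56 (SD, n = 3), whereas Fgf10 held 0.201% ± 0.0562 and Fgf17 held 0.898% ± 0.371. Fgf8 held 0.165%, 0.244% and 2.59% of the sum in the EpiLC libraries, so that its mean share of 1.00% ± 1.38 (SD, n = 3) rested on EpiLC replicate 3 and was 0.205% without it. As shares of expected counts, which are not scaled for length, the order in ESCs differed, with 21.9% for Fgf10 and 9.51% for Fgf8, and in EpiLCs Fgf10 held 0.360% and Fgf8 held 0.417%. The share of Fgf15 was 4.38% ± 2.10 in ESCs and 6.15% ± 1.26 in EpiLCs (SD, n = 3). These shares are descriptions, as an exact permutation test of 3 libraries against 3 cannot give a p below 0.10.

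**Figure D3:**
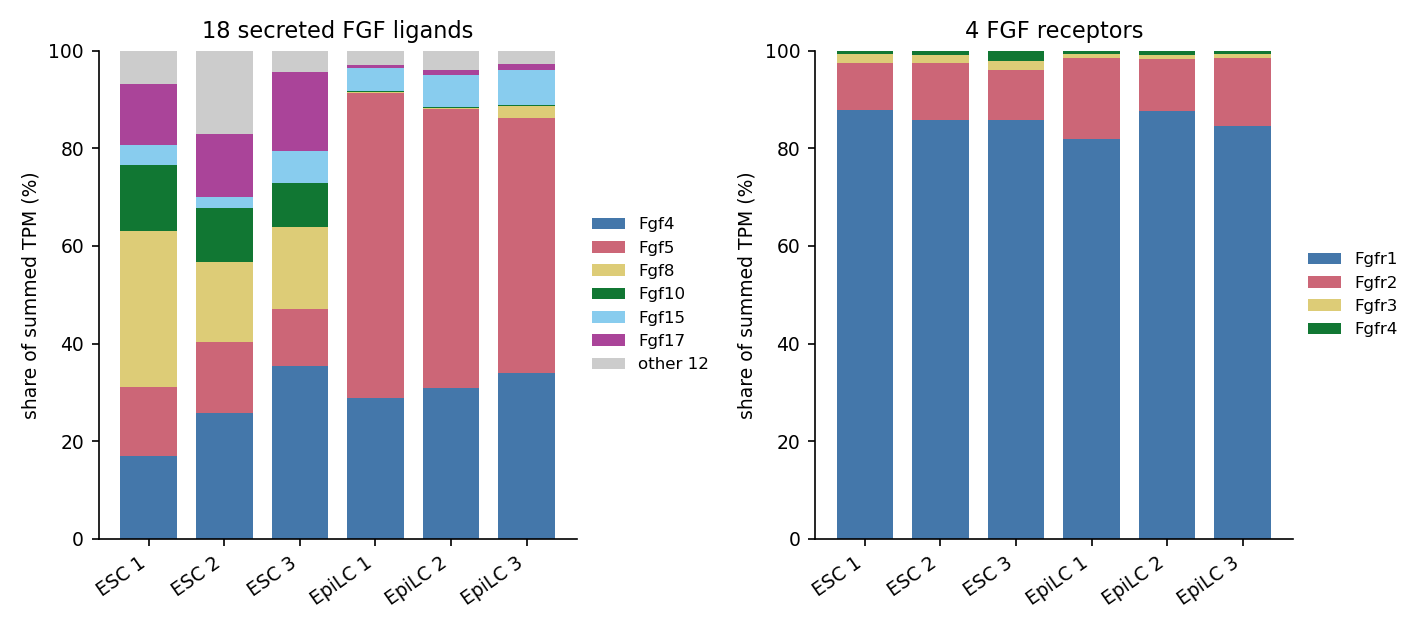
Share of each gene in the summed TPM of 18 secreted FGF ligands (left) and of the 4 FGF receptors (right), in percent, for each library. Grey marks the other 12 ligands. Fgf5 takes between 52.2% and 62.5% of the ligand sum in EpiLC libraries, and Fgfr1 takes between 81.9% and 87.96% of the receptor sum in every library.

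Among receptors, the mRNA of Fgfr1 and Fgfr2 rose. Fgfr1, the main FGF receptor of the epiblast, measured 54.6, 54.1 and 45.6 TPM in ESCs, against 78.4, 75.1 and 86.1 TPM in EpiLCs. All EpiLC values were above all ESC values, and the rise was small against that of Fgf5. The mean rose from 51.4 ± 5.04 to 79.8 ± 5.65 TPM (SD, n = 3 each), a log2 fold change of 0.59 (standard error 0.09, edgeR, adjusted p = 0.00245).

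Fgfr2, which serves the primitive endoderm of the blastocyst together with FGFR1, measured 5.86, 7.38 and 5.41 TPM in ESCs, against 16.0, 9.12 and 14.3 TPM in EpiLCs. EpiLC replicate 2 was closest to the ESCs but did not overlap with them. Its log2 fold change was 1.04 (95% interval 0.51 to 1.57, edgeR, adjusted p = 0.00939). The counts are summed over a gene, so the IIIb and IIIc forms of the receptors, which bind different ligands, cannot be told apart. Primitive endoderm markers, led by Lama1 and Gata4, had a sum of between 61.4 and 87.5 TPM in ESCs and between 16.0 and 16.4 TPM in EpiLCs, with 7 of 10 lower and 1 higher in EpiLCs. Among the ESCs, Fgfr2 did not share the order of this sum but had that of the fibroblast marker sum, with replicate 2 on top. The part of primitive endoderm or fibroblasts in the Fgfr2 values was not tested.

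Fgfr3, a brake on bone growth, and Fgfr4, the hepatic receptor for FGF15, were near 1 TPM. Fgfr3 measured 1.19, 0.970 and 0.990 TPM in ESCs, against 0.770, 0.720 and 0.790 TPM in EpiLCs. Although its groups did not overlap, its log2 fold change of -0.54 did not pass the test (95% interval -1.05 to -0.04 without adjustment, edgeR, adjusted p = 0.0765). Fgfr4 measured 0.430, 0.600 and 1.13 TPM in ESCs, against 0.600, 0.770 and 0.620 TPM in EpiLCs. The groups overlapped and ESC replicate 3 was highest, with a log2 fold change of -0.21 (95% interval -1.14 to 0.73, edgeR, adjusted p = 0.690). The Fgfr4 values rest on between 14 and 48 counts a library, and without ESC replicate 3 the log2 fold change was 0.33.

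Fgfr1 made up most of the receptor transcripts in both groups. The 4 receptors summed to 62.1, 63.0 and 53.2 TPM before and to 95.7, 85.7 and 102 TPM after differentiation. Fgfr1 held 86.5% ± 1.24 of this sum in ESCs and 84.7% ± 2.87 in EpiLCs, and Fgfr2 held 10.4% ± 1.162 and 13.8% ± 3.03 (SD, n = 3). The shares of both genes overlapped between the groups. The share of Fgfr3 was 1.77% ± 0.204 in ESCs and 0.807% ± 0.0321 in EpiLCs (SD, n = 3), without overlap.

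**Figure D4:**
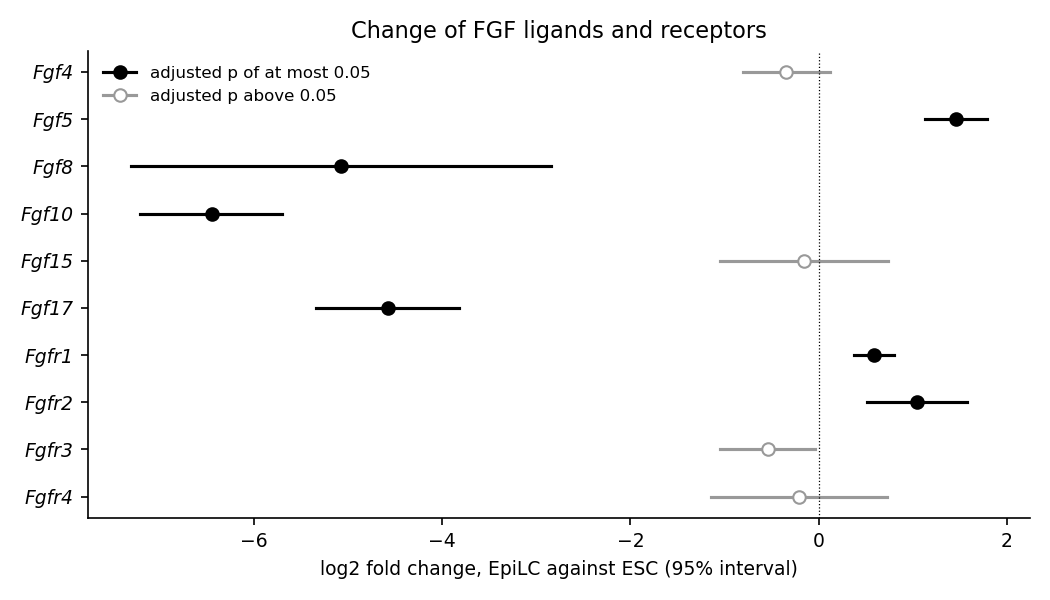
Log2 fold change of each of the 10 genes from ESC to EpiLC with its 95% interval, from edgeR's quasi-likelihood fit of 3 against 3 libraries. Filled points passed an adjusted p of 0.05 and open points did not. The interval of Fgf8, from -7.31 to -2.85, is the widest, and those of Fgf8, Fgf10 and Fgf17 lie wholly below -2.

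In ESCs the order of mean levels was Fgf4, Fgf8, Fgfr1, Fgf17, Fgf5, Fgf10, Fgf15, Fgfr2, Fgfr3 and Fgfr4, from 59.7 to 0.720 TPM. The ranges over the 3 libraries separated neighbours in this order at 3 places, between Fgfr1 and Fgf17, between Fgf10 and Fgf15 and between Fgfr2 and Fgfr3. In EpiLCs the order was Fgf5, Fgfr1, Fgf4, Fgfr2, Fgf15, Fgf8, Fgf17, Fgfr3, Fgfr4 and Fgf10, from 89.6 to 0.313 TPM. Here the ranges separated Fgfr1 from Fgf4, Fgf4 from Fgfr2, Fgf15 from Fgf8 and Fgfr4 from Fgf10, and the ranges of the other neighbours overlapped.

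The pattern over the 6 libraries was compared with 9207 other genes of at least 10 CPM by Pearson's correlation of log2 CPM, a measure that ignores the size of a change. For Fgf5 the closest genes were Zfyve16, Zfp36l2 and Csnk1g2 (r up to 0.999), and for Fgf8 they were Asb3, Aatf and Nmt1 (r up to 0.996). For Fgfr2, the receptor with the largest change, they were Mbtps1, Arpc1a and Cdk7 (r up to 0.998), and for Fgf4 they were 1700030K09Rik, Usp21 and Bag6 (r up to 0.990). With 6 libraries that fall into 2 groups, these values are given as a description, without a test.

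Of the 12 other secreted FGF genes, 5 had enough counts to be tested, and 1 was higher and 3 were lower in EpiLCs, with a median log2 fold change of -1.47. Over all genes tested, 22.6% were higher and 22.8% lower. Fgf7, which fibroblasts produce to act on epithelia, measured 7.37, 25.1 and 2.65 TPM in ESCs, against 0.460, 1.12 and 0.0800 TPM in EpiLCs (log2 fold change -4.42, edgeR, adjusted p = 0.0133). Fgf18, a skeletal ligand, fell by 1.22 on the log2 scale (edgeR, adjusted p = 0.0289) and measured 2.71, 4.21 and 1.74 TPM in ESCs. Fgf2, the gene of the ligand that was added to the EpiLC medium as protein, was not tested, with 5, 29 and 3 counts in the ESC replicates and 1, 3 and 0 counts in the EpiLC replicates. Fgf7, Fgf18 and Fgf2 thus shared the order of the fibroblast marker sum in the ESC libraries, whose part in these values was not tested. Fgf1, which binds all FGF receptors, fell from 1.27 ± 0.653 to 0.223 ± 0.0850 TPM (SD, n = 3, log2 fold change -2.59, edgeR, adjusted p = 0.00690). The gene that was higher was Fgf9, named here after its values were seen, which rose from 0.0833 to 0.607 TPM on average (log2 fold change 2.87, edgeR, adjusted p = 0.00210). The Fgf9 values rest on 4, 4 and 2 counts in ESCs and on 45, 43 and 30 counts in EpiLCs, so the size of its rise is uncertain.

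The intracellular FGF homologous factors, which bind sodium channels and are not secreted, were higher in EpiLCs in 3 of 3 genes tested, while Fgf12 had too few counts. Over all genes tested, 22.6% were higher. Fgf13 rose from 6.60 ± 1.53 to 15.2 ± 0.833 TPM (log2 fold change 1.19, edgeR, adjusted p = 0.00294). Fgf11 rose from 1.79 ± 0.815 to 4.14 ± 0.356 TPM and Fgf14 from 0.197 ± 0.0379 to 2.52 ± 0.240 TPM (SD, n = 3 each). The ESC values of Fgf14 rest on only 5, 4 and 9 counts.

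Of 8 co-receptors and binding proteins tested, 1 rose and 3 fell, with a median log2 fold change of -0.38. For comparison, 22.6% of all genes tested were higher and 22.8% lower in EpiLCs. Kl and Klb, the klotho co-receptors of endocrine FGFs, had too few counts to be tested. Fgfbp3, a secreted carrier that releases FGFs from the matrix, measured 1.01, 1.54 and 1.04 TPM in ESCs, against 14.99, 14.1 and 9.36 TPM in EpiLCs (log2 fold change 3.39, edgeR, adjusted p = 2.29e-04). Ncam1 and Cdh2, adhesion molecules that can bind FGFR1, fell by 2.63 and by 1.32 on the log2 scale, and Flrt3, a membrane protein that interacts with FGFR1, fell by 0.78. Ncam1 (12.4, 31.3 and 11.1 TPM in ESCs) and Flrt3 (8.64, 11.3 and 7.64 TPM) shared the order of the fibroblast marker sum among the ESCs, with replicate 2 on top, and the part of fibroblasts in these values was not tested. Cdh2 (71.46, 62.35 and 31.09 TPM in ESCs) had the order of the streak and primitive endoderm marker sums, and the part of such cells was not tested. Fgfrl1, a receptor without a kinase, had a log2 fold change of 0.01 (edgeR, adjusted p = 0.957), at 10.3 ± 2.71 and 10.9 ± 0.765 TPM (SD, n = 3 each); it was named after its values were seen.

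Of 22 adaptors and members of the RAS-ERK cascade, 5 were higher and 4 lower, and none of these 9 by more than 1 on the log2 scale (edgeR, adjusted p of at most 0.05). The share called was 40.9%, near the 45.4% of all genes tested. The list had a median log2 fold change of 0.12. Of 14 feedback inhibitors and ETS factors that ERK signalling induces, 6 were higher and 3 lower, with a median of 0.28. The share called was 64.3%, whereas over all genes tested 22.6% were higher and 22.8% lower. The largest rises were those of Spred3, a suppressor of the RAS-ERK cascade (5.24 ± 1.85 to 25.3 ± 0.729 TPM, log2 fold change 2.23), and Dusp4, a nuclear ERK phosphatase (47.2 ± 15.03 to 192.8 ± 9.58 TPM, SD, n = 3 each, log2 fold change 1.99). The largest falls were those of Dusp5, another nuclear phosphatase (log2 fold change -1.12), and Il17rd, a membrane inhibitor of FGF receptors (log2 fold change -1.0037), so that the feedback genes did not move in a single direction.

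**Figure D5:**
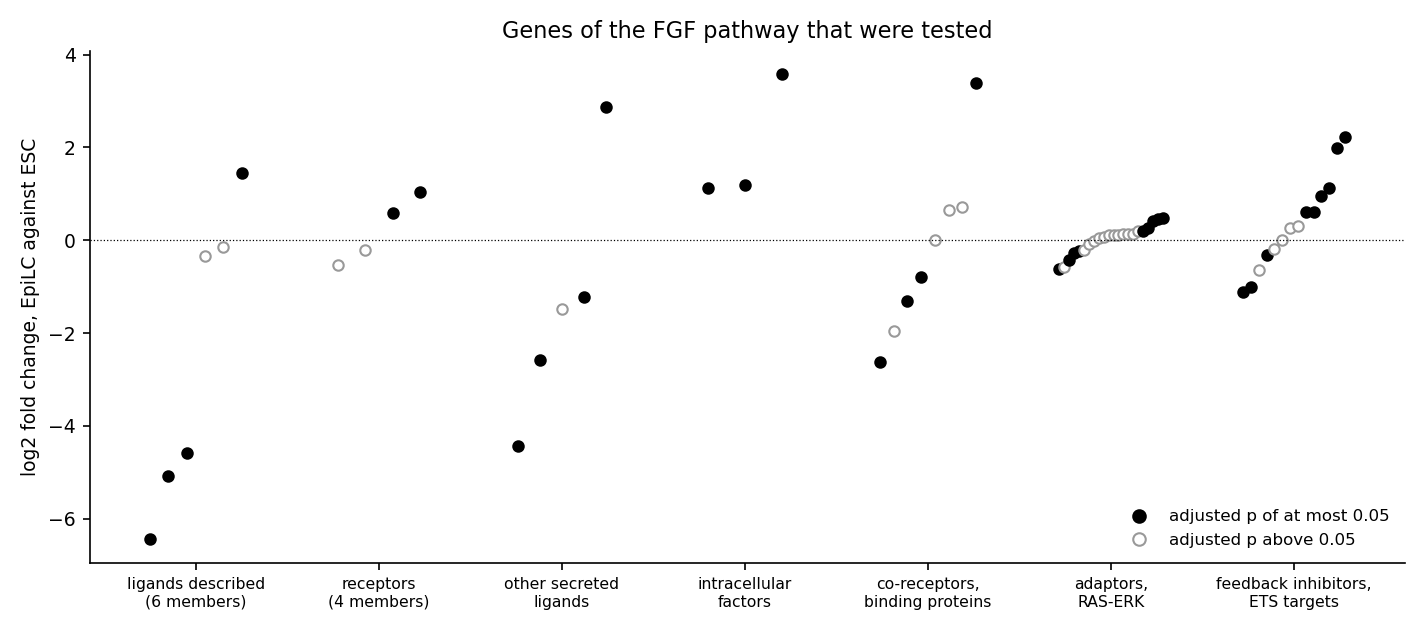
Log2 fold change from ESC to EpiLC of every tested gene of the FGF ligands, receptors and other pathway lists, each point a gene. Filled points passed an adjusted p of 0.05 in edgeR's fit across all genes. Ligands, binding proteins and intracellular factors spread from -6.45 to 3.58, whereas the 22 adaptors and RAS-ERK genes all lie within 1 of 0.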

How the data were processed

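RNA was sequenced from 3 ESC and 3 EpiLC libraries as strand-specific single-end reads of polyadenylated RNA. The authors trimmed reads with cutadapt 1.16, aligned them with STAR 2.5.2a and counted them with RSEM 1.3.0 against RefSeq genes of mm10. Values deposited per gene were expected counts without normalization, in which RSEM divides reads that map to several genes. The authors also deposited TPM, scaled for transcript length and library. Levels are given as TPM and changes from counts.

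Expected counts were rounded, normalized by TMM (factors from 0.979 to 1.02), filtered with filterByExpr and tested with edgeR 4.0.16 (quasi-likelihood test, R 4.3.3, no replicate block). The p-values were adjusted over all 14468 genes tested (Benjamini-Hochberg) and called at 0.05. The study used DESeq2, which is given as an alternative. Standard errors and 95% intervals were derived from the quasi-likelihood F statistic. The count per TPM, a measure of transcript length, varied by at most 2.91% between libraries for Fgf4, Fgf5, Fgfr1 and Fgfr2, which had over 100 counts in every library, and by 16.8% for Fgf8, with as few as 4. The labels call the libraries biological replicates, and the study's methods state that its statistics rest on at least 3 separate experiments. The level of 3 counts in a library covers counting error only. The fits were tested on simulated data.

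The genes named were the 10 members, other FGF genes of at least 1 TPM in any library, co-receptors that passed the test, transducers that passed it with a change above 1 on the log2 scale, the 2 largest rises and falls of the feedback list, the 2 most abundant genes of each marker list and any defining marker at 0, and the 3 genes most like Fgf4, Fgf5, Fgf8 and the receptor with the largest change. Fgf12, Kl and Klb, which were not tested, and the genes said to be named after their values were seen fall outside this rule. Members and lists were chosen with earlier results of these data known. Other settings tried were no filter or at least 10 counts in each library, DESeq2 1.42.0, scaling to the upper quartile, the replicate block, limma 3.58.1 on log2(TPM + 1) and log2(TPM + 0.1), leaving out each library, and shares of counts. Leaving out ESC replicate 2 with EpiLC replicate 3, and the alternatives for ligand shares, were chosen after seeing the data. The check of pluripotency also covered Pou5f1, Sox2 and Lin28a, of which 1 rose, 1 fell and 1 did not pass the test. Positions are those of RefSeq on GRCm38.p6, the build of mm10.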

Additional observations from a re-analysis of the deposited data

How the results depend on the processing

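Under the alternatives run, the genes that rose (Fgf5, Fgfr1 and Fgfr2) and fell (Fgf8, Fgf10 and Fgf17) kept their direction and their side of the threshold wherever they were tested, including in the 6 fits that each left out 1 library; Fgf8 could not be tested with at least 10 counts in every library, which left 2 genes lower. The log2 fold change of Fgf10 was -4.35 with limma after adding 1 TPM, which shrinks changes of low genes, and that of Fgf8 was -4.58. With the replicate block, 3 of the 10 genes were higher and 3 lower, and 6085 genes were called against 6571. Same-numbered libraries had correlations of 0.00668, 0.186 and 0.170 across genes, so the numbers were not taken as pairs, and not every library correlated best with its own number. The direction of Fgf15 and Fgfr4, which did not pass the test, was not stable. With limma, the log2 fold change of Fgf15 was 0.0011 after adding 1 TPM and 0.012 after adding 0.1 TPM. It ran from -0.47 to 0.18 when 1 library was left out and was -0.61 without ESC replicate 2 and EpiLC replicate 3, being 0.18 without ESC replicate 3 and 0.03 without EpiLC replicate 1. Fgfr4 had from -0.49 to 0.33, the highest without ESC replicate 3. Leaving out 1 library gave 4244 to 7181 called genes, the lowest without EpiLC replicate 1. The cause of the other differences was not tested.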
